A study of Mus musculus with 8 samples.

Results

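The synaptic vesicle and release machinery was followed through 40 named genes, taken as a list by gene symbol. No cut on measured values was used, but earlier results of these data were known when the list was made. All 40 were found among the 45706 genes of the count table and all 40 passed the filter on low counts, which left 14962 genes for testing. The list falls into 14 calcium sensors (12 synaptotagmins and both Doc2 genes), 7 SNAREs and complexins, 9 active zone and Rab3 genes, and 10 vesicle proteins and vesicular glutamate transporters. The first class is named for its best known members, and not all of its synaptotagmins bind calcium.

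At a presynaptic terminal, vesicles filled with transmitter are docked and primed at the active zone and fuse with the plasma membrane when calcium enters. SNARE proteins on the vesicle and on the plasma membrane assemble into the complex that drives fusion, complexins bind this complex, and some synaptotagmins sense the calcium. Hippocampal neurons make most of these proteins in large amounts, and their genes are widely used as markers of presynaptic terminals.

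Libraries were made from poly-A RNA of hippocampal neurons grown in culture from embryonic day 18 (E18) C57/Bl6 wild type mice. Neurons received melanin-concentrating hormone (MCH), a hypothalamic neuropeptide, or H2O as control vehicle for 4 h, with 4 wells per treatment (replicates 1 to 4). The comparison asks whether a brief exposure to MCH changes the RNA of the release machinery. Both groups share the genotype and the embryonic age, although an Alzheimer's disease tag stands beside the wild type genotype in the labels. By the study's methods the wells came from a pair of independent cultures, each giving a pair of wells per treatment, and the labels do not say which well came from which culture. *P* values therefore measure the spread between wells, part of which may be technical.

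Library totals ranged from 26083936 to 31844861 estimated counts. The 10 neuronal marker genes summed to 4842 to 5163 CPM (counts scaled to a common library size) in the 8 wells, with all 10 tested. The microglial marker *Tmem119* and the oligodendrocyte markers *Sox10*, *Mog* and *Mag* had at most 3 counts in every well. Other markers of the same cell types were detected, with 6 of 9 microglial and 6 of 9 oligodendrocyte lineage markers tested. Further non-neuronal markers were present as well. The wells fell into separate sets: replicates 1 and 2 of both treatments stood apart from replicates 3 and 4 of both on the first principal component. It held 59.8% of the variance left after the treatment means were removed, and so could not separate the treatments. The sets were read from these counts and are called sides below. The 9 astrocyte markers summed to between 1098 and 1209 CPM in replicates 1 and 2 and to between 2348 and 2683 CPM in replicates 3 and 4, and did not separate by treatment (1098 to 2538 CPM with vehicle and 1164 to 2683 CPM with MCH). Each comparison is therefore given without a block, with the replicate number as a block and with the side as a block (batch block). Pairing wells by number is an assumption, which the labels do not state and the counts do not tell from other pairings within a side.

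The release machinery was expressed at high levels, and its members spanned a wide range. Together the 40 genes held between 1.64% and 1.90% of all counts in a well. Levels are compared between genes in TPM, transcript abundances scaled for length and depth, as mean ± SD over the 8 wells. *Syp*, which encodes the vesicle membrane protein synaptophysin, was highest at 1523 ± 73.5 TPM, and *Snap25*, a SNARE of the plasma membrane, followed at 1496 ± 39.1 TPM, within the spread of *Syp*. The vesicle SNARE *Vamp2* (1257 ± 69.1 TPM) and *Rab3a* (1056 ± 35.2 TPM), a small GTPase of vesicles, came next, and the highest *Vamp2* well lay below the lowest *Snap25* well. The vesicular glutamate transporter *Slc17a7* (VGLUT1) stood at 847 ± 96.1 TPM, far above *Slc17a6* (VGLUT2) at 6.66 ± 0.894 TPM.

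**Figure D1:**
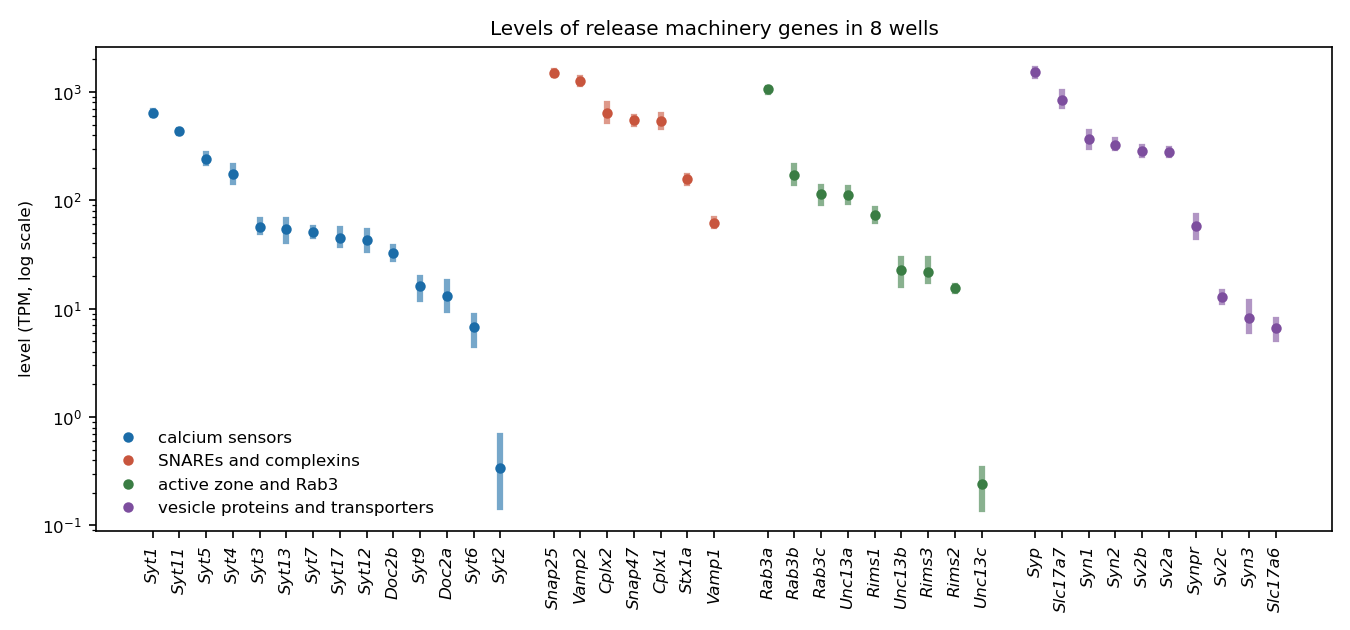
TPM of each of the 40 genes on a log axis, grouped by class and ordered by mean. Points are means over the 8 wells and bars run from the lowest to the highest well. *Syp*, *Snap25*, *Vamp2* and *Rab3a* form the top of the plot (1056 to 1523 TPM), and *Syt2* and *Unc13c* lie below 1 TPM.

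In the calcium sensor class, *Syt1*, the sensor of fast synchronous release, was the most abundant at 636 ± 23.0 TPM. *Syt11* (433 ± 10.5 TPM), *Syt5* (240.3 ± 17.1 TPM) and *Syt4* (176 ± 25.6 TPM) followed. *Syt7*, a slower sensor linked to asynchronous release, was at 51.2 ± 2.79 TPM, close to *Syt3* (56.9 ± 5.30 TPM) and *Syt13* (54.3 ± 10.1 TPM), and these 3 overlapped in their SDs. *Syt9* was at 16.3 ± 2.23 TPM and *Syt6* at 6.79 ± 1.50 TPM. *Syt2*, the fast sensor best known from the hindbrain and the neuromuscular junction, was near the limit of detection, with 18 to 44 counts per well (0.340 ± 0.156 TPM). The soluble sensors *Doc2b* and *Doc2a* were at 32.8 ± 3.16 and 13.1 ± 2.39 TPM.

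In the other classes, families differed in how evenly their members were expressed. Of the complexins, *Cplx2* reached 646 ± 112 TPM and *Cplx1* 540.0 ± 62.1 TPM, with overlapping spreads. The SNAREs *Snap47* (549.7 ± 32.5 TPM), *Stx1a* (157 ± 7.55 TPM) and *Vamp1* (61.6 ± 2.99 TPM) completed that class. Of the Munc13 priming factors, *Unc13a* (113 ± 10.1 TPM) exceeded *Unc13b* (22.9 ± 4.47 TPM), and *Unc13c* had only 19 to 47 counts per well (0.241 ± 0.0632 TPM). Of the RIM genes, active zone scaffolds that bind Rab3, *Rims1* (73.7 ± 5.29 TPM) stood above *Rims3* (22.0 ± 3.27 TPM) and *Rims2* (15.6 ± 0.620 TPM). *Rab3b* (173 ± 20.3 TPM) and *Rab3c* (114 ± 19.5 TPM) were below *Rab3a*. The synapsins, which tether vesicles to one another, ran from *Syn1* (368 ± 37.9 TPM) and *Syn2* (324 ± 19.5 TPM) to *Syn3* (8.25 ± 1.49 TPM). Of the SV2 glycoproteins of the vesicle membrane, *Sv2b* (288 ± 17.5 TPM) and *Sv2a* (281 ± 17.3 TPM) did not differ beyond their spread and *Sv2c* was low (12.9 ± 1.10 TPM), while *Synpr*, a relative of synaptophysin, was at 58.1 ± 11.3 TPM.

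*Snap25* was read as a pair of transcripts that differ in which copy of the fifth exon they carry. The copies are shown because they are the part of the coding sequence by which these isoforms of the most abundant SNARE differ. Both come from the plus strand of GRCm38, chr2:136770057-136770174 in *Snap25*-201 and chr2:136769743-136769860 in *Snap25*-202. Each is 118 bases long, and 31 positions differ (capitals), which leaves 73.7% identical.
Snap25-201: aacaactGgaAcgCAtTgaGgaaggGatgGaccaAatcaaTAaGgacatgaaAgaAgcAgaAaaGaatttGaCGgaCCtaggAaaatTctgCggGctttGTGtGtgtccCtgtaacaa
Snap25-202: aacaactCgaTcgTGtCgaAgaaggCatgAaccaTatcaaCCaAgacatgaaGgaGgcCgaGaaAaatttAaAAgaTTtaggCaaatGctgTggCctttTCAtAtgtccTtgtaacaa

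*Snap25*-201 held 69.6% ± 1.58 of the gene's TPM with vehicle and 68.6% ± 0.784 with MCH (SD, n = 4), and *Snap25*-202 held the rest. The shares overlapped between treatments, from 67.9% to 71.1% with vehicle and from 67.5% to 69.3% with MCH. The annotated transcripts also end differently, with last exons of 1354 and 277 bases, so these shares do not rest on the fifth exon alone.

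After 4 h of MCH, none of the 40 genes was differentially expressed (DE) by edgeR's quasi-likelihood test without a block (Benjamini–Hochberg adjusted *P* under 0.05), where 35 of 14962 genes were (0.234%, 31 lower and 4 higher). At an unadjusted *P* under 0.05 there were 4 of 40 (*Syt9* and *Vamp1* lower, *Syn2* and *Sv2b* higher), against 8.50% of all genes. DESeq2 called *Sv2b*, 1 of the 38 members to which it gave an adjusted *P*, against 1.25% of all genes with one (157 of 12540). Limma voom called 0 of 40, against 0.187% of all genes (28 of 14962). The log2 fold changes of MCH over vehicle ran from −0.25 to 0.16 with a median of −0.03, beside −0.00 for all genes, and 25 were below 0 and 15 above. Their median size was 0.047 on the log2 scale, and 0.071 for all genes tested.

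The intervals rest on the spread between wells, and do not bound a difference across cultures. The 95% interval of limma voom lay within a 1.25-fold change in either direction (0.32 on the log2 scale) for 24 of 40 genes without a block, beside 57.0% of all genes, and for 37 of 40 with the replicate block, beside 66.6%. Without a block the exceptions included *Cplx2* (−0.37 to 0.37), *Rab3c* (−0.36 to 0.37) and *Syt13* (−0.44 to 0.36). With the replicate block the exceptions were *Syt2* (−0.63 to 0.38), *Unc13c* (−0.53 to 0.48) and *Syt9* (−0.39 to −0.12). *Syt2* and *Unc13c* are the genes near 1 CPM, and for them a change of that size was not detectable at this depth.

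**Figure D2:**
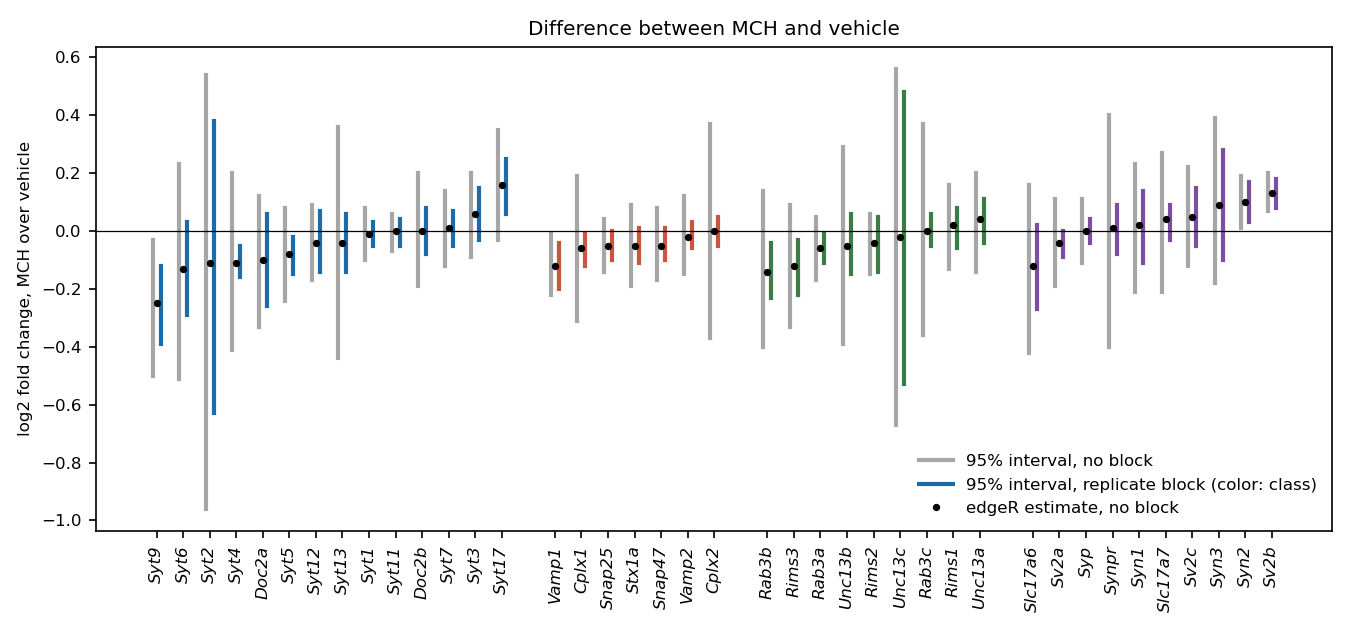
Log2 fold change of MCH over vehicle for each of the 40 genes (black points, edgeR without a block), with 95% intervals of limma voom without a block (gray) and with the replicate block (colored by class: blue calcium sensors, red SNAREs and complexins, green active zone and Rab3, purple vesicle proteins and transporters). Only *Syt9* lies below −0.20, and the widest intervals are those of *Syt2* and *Unc13c*.

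With the replicate or the side in the model, the same 3 of 40 genes passed the threshold under both: *Sv2b* was higher with MCH, and *Syt9* and *Syt4* were lower. Over all genes, 3.98% passed with the replicate block (2.25% lower and 1.73% higher), 4.46% with the batch block (2.61% lower and 1.85% higher) and 3.77% with both. No gene of the SNARE and complexin class or of the active zone and Rab3 class passed in either fit. In simulated data the fits with a block made more false calls than the threshold allows. The sides were also read from these counts. The calls with a block and their adjusted *P* values are therefore less certain than the threshold implies. The intervals with the replicate block may likewise be too narrow.

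*Sv2b* (ENSMUSG00000053025, chr7:75114894-75309262, GRCm38, minus strand) encodes a vesicle glycoprotein that binds synaptotagmin. It measured 847, 817, 854 and 828 CPM in vehicle replicates 1 to 4 and 921, 916, 902 and 925 CPM in MCH replicates 1 to 4. Every MCH well lay above every vehicle well, and the sides did not differ in this gene (875 ± 51.8 CPM in replicates 1 and 2 and 877 ± 44.2 CPM in replicates 3 and 4). The log2 fold change was 0.13 ± 0.03 (SE) without a block (edgeR, adjusted *P* = 0.187). With either block it was 0.13 ± 0.02 (edgeR, adjusted *P* = 0.00415 with the replicate block and 0.00130 with the batch block). Taken within the sides, it was 0.14 for replicates 1 and 2 and 0.12 for replicates 3 and 4. The call with the batch block was made in 8 of 8 fits that each left out 1 well.

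*Syt9* (ENSMUSG00000062542, chr7:107370728-107548656, GRCm38, plus strand) encodes a fast calcium sensor used by some groups of neurons. It measured 30.1, 32.3, 35.6 and 34.4 CPM with vehicle and 26.1, 22.7, 30.4 and 31.8 CPM with MCH. Each MCH well was below the vehicle well of its number, but the groups overlapped, since MCH replicates 3 and 4 lay among the vehicle wells. The log2 fold change was −0.25 ± 0.10 (SE) without a block (edgeR, adjusted *P* = 0.549) and −0.26 with either block (adjusted *P* = 0.0187 with the replicate block and 0.00923 with the batch block). Taken within the sides, it was −0.36 for replicates 1 and 2 and −0.17 for replicates 3 and 4. The call was lost with the batch block when vehicle replicate 2 or MCH replicate 2 was left out, with the highest adjusted *P* at 0.0751.

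*Syt4* (ENSMUSG00000024261, chromosome 18, minus strand) encodes a synaptotagmin that does not bind calcium through its first C2 domain. It measured 441, 454, 333 and 343 CPM with vehicle and 409, 417, 310.0 and 322 CPM with MCH. The sides differed far more than the treatments, which overlapped, and each MCH well was lower than the vehicle well of its number. The log2 fold change was −0.11 ± 0.14 (SE) without a block (edgeR, adjusted *P* = 0.940). With either block it was −0.11 ± 0.03 (edgeR, adjusted *P* = 0.0286 with the replicate block and 0.0195 with the batch block). Taken within the sides, it was −0.12 for replicates 1 and 2 and −0.10 for replicates 3 and 4. Of the 8 fits with the batch block that each left out 1 well, only those without vehicle replicate 3 or MCH replicate 4 kept the call, and the highest adjusted *P* was 0.140.

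Vehicle replicate 3 weighed on these counts: without it, the fit with the batch block called 9 of the 40 genes, *Syt4*, *Syt9*, *Vamp1*, *Cplx1*, *Rims3* and *Rab3b* lower and *Syt17*, *Syn2* and *Sv2b* higher, while it called 1046 genes in all. Without vehicle replicate 2 or MCH replicate 2 it called 1 of 40, *Sv2b*, while it called 273 and 370 genes in all. With all wells it called 3 of 40 and 668 genes in all.

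In 2 of 40 genes, *Sv2b* and *Syn2*, all MCH wells lay beyond all vehicle wells, both higher, against 6.03% of all genes (3.07% higher and 2.96% lower). *Syn2*, named here after its values were seen, measured 650.4, 638, 674 and 646 CPM with vehicle and 677, 751, 694 and 676 CPM with MCH. MCH replicate 2 was the highest well, and the lowest MCH well exceeded the highest vehicle well by little. Its log2 fold change was 0.10 ± 0.04 (SE) without a block (edgeR, adjusted *P* = 0.553). With either block it was 0.10 ± 0.03 (edgeR, adjusted *P* = 0.0832 with the replicate block and 0.0928 with the batch block).

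Other members with a difference of similar size did not pass in any of the 3 fits. Those named here were also chosen after their values were seen, and further members had such differences. Among these were *Rims3* (−0.12), *Syt6* (−0.13) and *Slc17a6* (−0.12). Log2 fold changes and SEs in this paragraph are those without a block. *Vamp1*, a vesicle SNARE, measured 99.0, 102, 89.4 and 93.9 CPM with vehicle and 86.5, 89.9, 87.4 and 90.0 CPM with MCH (log2 fold change −0.12 ± 0.04 SE, edgeR adjusted *P* = 0.501 without a block, 0.0894 with the replicate block and 0.0747 with the batch block). *Syt17* measured 32.6, 31.4, 37.3 and 34.6 CPM with vehicle and 34.9, 34.6, 43.3 and 39.0 CPM with MCH (0.16 ± 0.08, adjusted *P* = 0.661, 0.0645 and 0.0678 in the same order). In both genes every MCH well stood on one side of the vehicle well of its number while the groups overlapped. *Rab3b* measured 156, 150.1, 108 and 132 CPM with vehicle and 140.4, 131, 112 and 113 CPM with MCH (−0.14 ± 0.12, adjusted *P* = 0.857, 0.0888 and 0.248), lower in 3 of 4 pairs.

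**Figure D3:**
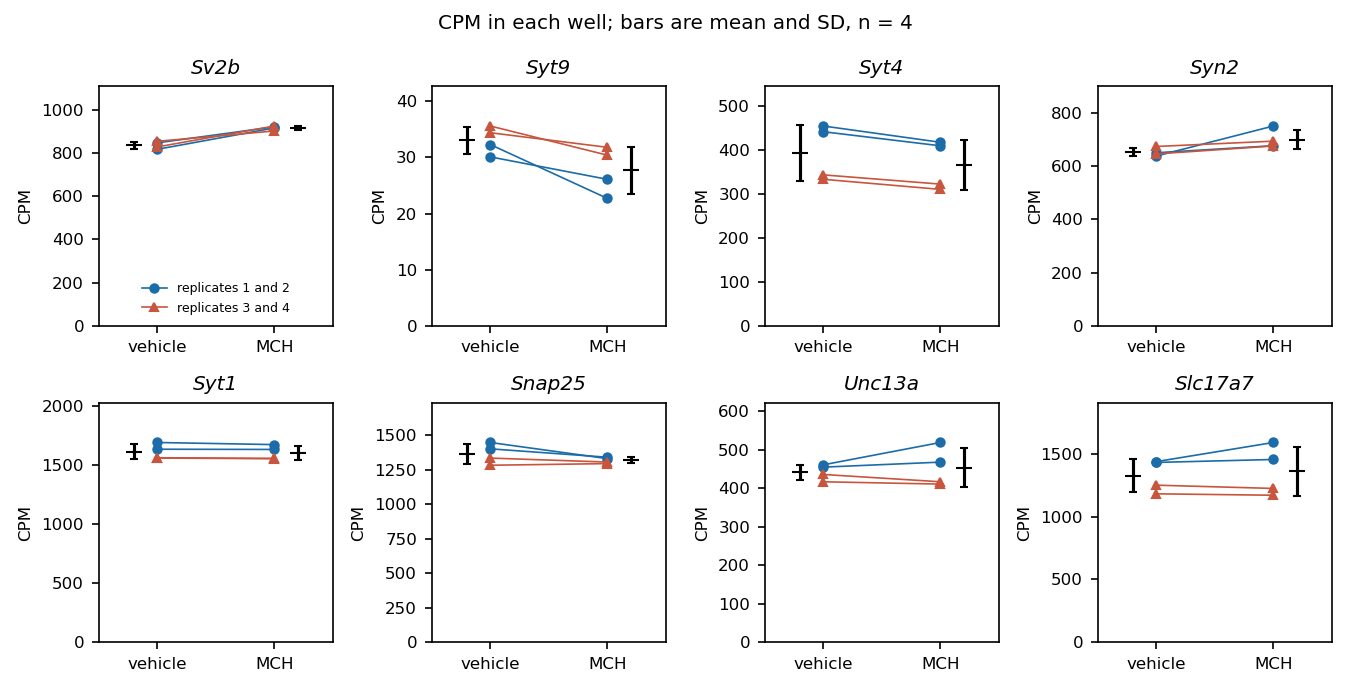
CPM of 8 genes in each well, from 0, with lines joining wells of the same replicate number, blue circles for replicates 1 and 2 and red triangles for replicates 3 and 4. Black bars are the mean and SD of each treatment (n = 4). *Sv2b* is higher in all MCH wells (902 to 925 CPM) than in all vehicle wells (817 to 854 CPM), whereas for *Syt4* the replicates separate more than the treatments.

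The best known member of each class did not pass the threshold in any of the 3 fits. *Syt1* (chr10:108497650-109010982, minus strand) measured 1693, 1636, 1561 and 1564 CPM with vehicle and 1675, 1634, 1556 and 1558 CPM with MCH, a log2 fold change of −0.01 with a 95% interval of −0.05 to 0.03 with the replicate block. *Snap25* (chr2:136713453-136782428, plus strand) measured 1449, 1403, 1284 and 1336 CPM with vehicle and 1332, 1342, 1296 and 1307 CPM with MCH (interval −0.10 to 0.00). In both genes the wells of the treatments overlapped. *Unc13a* (chr8:71624417-71671757, minus strand), the main Munc13 priming factor of excitatory synapses, measured 461, 455, 436 and 417 CPM with vehicle and 519, 468, 417 and 411 CPM with MCH (interval −0.04 to 0.11). *Syn1* (chrX:20860511-20921004, minus strand) measured 630.4, 672, 640.5 and 629 CPM with vehicle and 745, 726, 607 and 535 CPM with MCH (interval −0.11 to 0.14). For *Syn1*, MCH replicates 1 and 2 lay above all vehicle wells and MCH replicates 3 and 4 below them. *Slc17a7* (chr7:45163949-45176142, plus strand) measured 1429.6, 1436, 1249 and 1180.3 CPM with vehicle and 1453, 1588, 1223 and 1169 CPM with MCH (interval −0.03 to 0.09), and followed the sides rather than the treatment. All these intervals are with the replicate block, and those without a block were wider. They were −0.10 to 0.08 for *Syt1*, −0.14 to 0.04 for *Snap25* and −0.14 to 0.20 for *Unc13a*. For *Syn1* the interval without a block was −0.21 to 0.23, and for *Slc17a7* −0.21 to 0.27.

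By class, the medians of the log2 fold change were −0.04 for calcium sensors (11 of 14 below 0), −0.05 for SNAREs and complexins (6 of 7 below 0), −0.04 for active zone and Rab3 genes (6 of 9 below 0) and 0.03 for vesicle proteins and transporters (2 of 10 below 0). Of all genes tested, 51.0% were below 0. No difference between classes was tested.

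The sides separated the members more than the treatment did. In 36 of 40 genes (90.0%) the difference between replicates 3 and 4 and replicates 1 and 2 was larger than that between MCH and vehicle, beside 65.6% of all genes. All 4 wells of one side lay beyond all 4 of the other in 25 of 40 genes, against 29.6% of all genes. Of these, 20 were lower in replicates 3 and 4, where 13.0% of all genes were, and 5 were higher (*Syt2*, *Doc2b*, *Unc13c*, *Syn3* and *Synpr*), where 16.6% of all genes were. Since the sides were taken from these counts, no test is given.

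The lower genes came from all classes: 6 of 14 calcium sensors (*Syt1*, *Syt3*, *Syt4*, *Syt6*, *Syt7* and *Syt13*), 5 of 7 SNAREs and complexins, 6 of 9 active zone and Rab3 genes, and 3 of 10 vesicle proteins and transporters (*Sv2a*, *Syp* and *Slc17a7*). The following genes were chosen after their values were seen. *Cplx2* measured 2081, 2026, 1495 and 1504 CPM with vehicle and 2046, 2139, 1479.7 and 1464 CPM with MCH, and *Rab3c* 639.6, 648, 464 and 458 CPM with vehicle and 647, 639, 454 and 474 CPM with MCH. Both were lower in replicates 3 and 4 by 0.48 on the log2 scale, with treatments nearly equal within a side. *Syt13*, a synaptotagmin that does not bind calcium, fell by 0.51 (132 ± 5.04 CPM in replicates 1 and 2 and 92.9 ± 6.54 CPM in replicates 3 and 4). *Synpr* moved the other way, at 63.3 ± 2.59 and 90.6 ± 2.51 CPM.

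Among the SNAREs, *Vamp2* ran from 1498 to 1537 CPM in replicates 1 and 2 and from 1337 to 1390.1 CPM in replicates 3 and 4. *Stx1a*, the plasma membrane syntaxin, ran from 168 to 189.6 CPM and from 157 to 163 CPM, and *Snap47* from 399 to 422 CPM and from 363 to 374 CPM. The shift of the complexin *Cplx1* was larger, from 647 to 708 CPM on one side and from 536 to 574 CPM on the other. In the active zone class *Unc13b* fell by 0.42 on the log2 scale (52.5 to 58.5 CPM and 39.2 to 44.1 CPM), *Rims3* by 0.25 and *Rims1* by 0.17. *Rab3a* ran from 569.5 to 601 CPM and from 518 to 559.6 CPM. The vesicle membrane proteins *Syp* (1768 to 1845 CPM and 1640.2 to 1677 CPM) and *Sv2a* (691 to 721 CPM and 611 to 644 CPM) were lower in replicates 3 and 4 without overlap. Members that did not follow the sides included *Syt11* (928 to 964 CPM and 942 to 961 CPM) and *Rims2* (37.9 to 42.7 CPM and 39.6 to 42.5 CPM), whereas *Doc2b* (71.4 to 74.4 CPM and 83.8 to 89.7 CPM) and *Syn3* (6.89 to 9.01 CPM and 9.51 to 10.4 CPM) were higher.

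**Figure D4:**
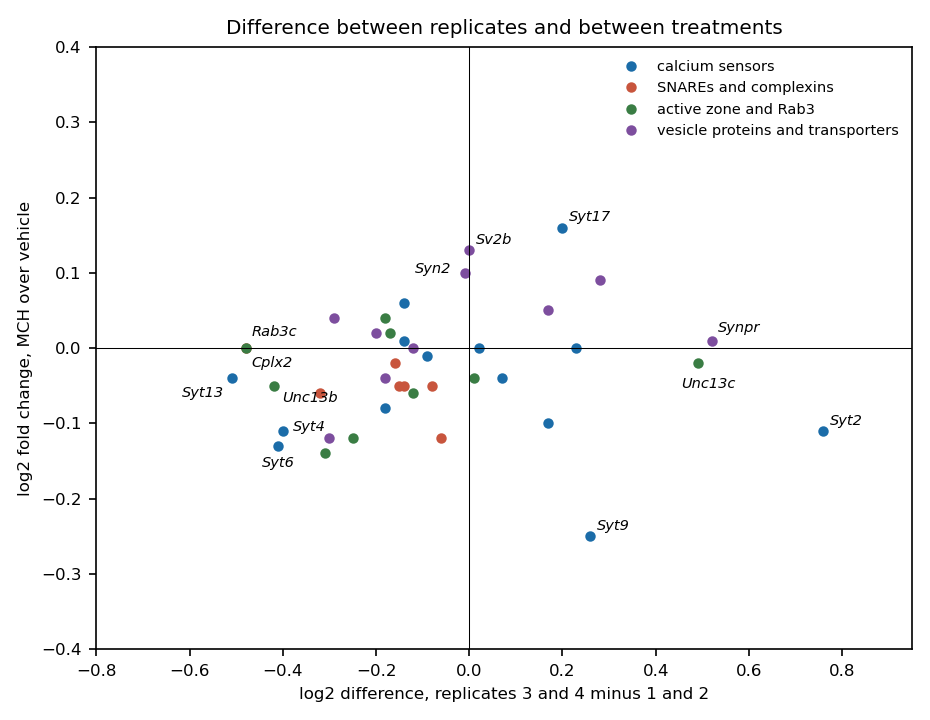
Log2 difference of each of the 40 genes between replicates 3 and 4 and replicates 1 and 2 (horizontal) and log2 fold change of MCH over vehicle (vertical), colored by class. The vertical axis covers a narrower range than the horizontal axis. Points spread from −0.51 to 0.76 horizontally and from −0.25 to 0.16 vertically.

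Glial markers moved with the sides. All 9 astrocyte markers were higher in replicates 3 and 4, by a median of 1.95 on the log2 scale, and the summed levels of the oligodendrocyte lineage (57.4 to 67.9 against 126 to 147 CPM), of microglia (7.44 to 9.68 against 13.7 to 17.8 CPM) and of fibroblasts or vessels (19.0 to 25.8 against 56.3 to 62.5 CPM) were higher as well. The 10 neuronal markers summed to 5007 to 5163 CPM in replicates 1 and 2 and to 4842 to 4944 CPM in replicates 3 and 4, with 3 of 10 separate and lower. The 12 inhibitory neuron markers summed to 3495 to 3800.4 CPM and to 2965 to 3272 CPM, with 7 of 12 separate and lower, and the 8 excitatory neuron markers to 1843 to 2107 CPM and to 1605 to 1722 CPM, with 2 of 8 separate and lower and 1 higher. Over all genes tested, 13.0% were separate and lower in replicates 3 and 4, and 16.6% separate and higher. The members summed to 18652 to 18983 CPM and to 16401 to 16719.9 CPM. In bulk libraries fewer cells of a type and less RNA per cell cannot be told apart, and the part of the glial and neuronal markers in these differences was not tested.

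The wider release pathway was counted over 68 further genes in 4 lists. Of the 15 SNARE partners listed, 14 were found by symbol. Of the 68 genes, 65 were found and passed the filter. None was DE without a block by edgeR, DESeq2 or limma voom, with 3 at an unadjusted *P* under 0.05 (edgeR) beside 8.50% of all genes. With either block 1 of 65 was, beside 3.98% and 4.46% of all genes for the replicate and the batch block. This was *Rph3a*, which encodes rabphilin, an effector of Rab3. It was at 534 ± 52.4 CPM with vehicle and 489.9 ± 38.4 CPM with MCH, a log2 fold change of −0.13 (edgeR, adjusted *P* = 0.748 without a block, 0.0101 with the replicate block and 0.00591 with the batch block). The sides separated 40 of these 65 genes, 38 lower and 2 higher in replicates 3 and 4, beside 29.6% of all genes (13.0% lower and 16.6% higher). Lower genes made up 8 of 13 SNARE partners, 6 of 16 active zone and priming genes, 13 of 18 vesicle proteins and 11 of 18 endocytosis genes.

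At the level of transcripts, 165 were annotated for the 40 genes and 110 were tested among 33527. None was DE by edgeR, DESeq2 or limma voom or with either block, as for all transcripts tested with edgeR without a block (0%). At an unadjusted *P* under 0.05 there were 3, *Syn2*-202 higher and *Vamp1*-203 lower among the protein-coding ones and *Unc13b*-211, a retained intron, higher, against 4.40% of all. In 37 of 40 genes 1 transcript held 50% or more of the TPM, and 9 genes had a single transcript in the tables, among them *Syt4* and *Slc17a7*. *Sv2b*-202 held 56.9% ± 4.95 of its gene with vehicle and 55.4% ± 6.37 with MCH, and *Sv2b*-201 the rest. *Syn1*-202 held 59.5% ± 2.98 and 59.0% ± 3.00, *Unc13a*-201 54.5% ± 3.18 and 53.2% ± 1.30, *Unc13a*-208 22.9% ± 1.02 and 21.3% ± 1.80, and *Syt1*-201 88.2% ± 1.24 and 88.8% ± 0.429. *Syt9*-201 held 76.6% ± 9.26 and 76.8% ± 2.65, and *Syt9*-202, a retained intron, ran from 0% to 22.5% with vehicle and from 13.9% to 19.2% with MCH. These shares overlapped between treatments. Over all transcripts of the members that held 10% or more of a gene with several transcripts, 3 of 63 shares did not overlap, beside 2.50% of such transcripts of all genes. *Unc13b*-211 ran from 6.12% to 11.6% with vehicle and from 12.9% to 20.0% with MCH, and *Unc13b*-201, of the same gene, from 41.4% to 49.5% and from 35.0% to 40.4%. *Rab3a*-206, named after its values were seen, ran from 22.3% to 26.3% and from 26.4% to 29.1%. The split between transcripts is an estimate, and its error is not in the test.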

How the data were processed

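Reads of stranded poly-A libraries were quantified by the authors on GRCm38 with salmon, run inside nf-core/rnaseq. The deposited gene table holds estimated counts, salmon's reads per transcript summed to genes with no scaling. Of its values, 9.13% are fractional. Per transcript, the authors deposited estimated counts, effective lengths and TPM (salmon's own scaling for length and depth). Identifiers were matched to GENCODE vM21, which may not be the release the authors used. It named 45143 of 45706 genes and 108214 of 109617 transcripts. All per-sample columns were used (0 left out).

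Rounded counts were fitted with edgeR 4.0.16 under R 4.3.3 (TMM factors, filterByExpr with a count minimum of 10, robust quasi-likelihood fit, Benjamini–Hochberg adjustment over all 14962 genes, threshold 0.05). CPM are scaled with the TMM factors. Intervals are from limma 3.58.1 (voom), and DESeq2 1.42.0 was an alternative. Standard errors were obtained from the F statistic, as the absolute log2 fold change divided by its root. The fits were tested on simulated data, where those with a block made more false calls than the threshold allows. Genes with at most 3 counts in every well were taken as not detected, a floor that covers counting error only.

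Groups and replicate numbers came from the labels. Pairing by number was checked with correlations of log2 CPM after the treatment means were subtracted. Wells of the same number correlated at 0.445, 0.492, 0.545 and 0.499, above the limit of 0.1. Wells of different numbers on the same side correlated at 0.475 to 0.521 and wells across the sides at −0.548 to −0.438. The check therefore could not tell wells of the same number from other wells of the same side. The labels do not state a pairing by number, and the replicate block assumes it. Sides are the signs of the first principal component of the same deviations, so the batch block uses the counts more than once.

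The 40 genes and all lists were chosen with earlier results of these data known. Values in every well are given for genes called with any of the 3 fits and for *Syt1*, *Snap25*, *Unc13a*, *Syn1* and *Slc17a7*. Pathway and marker genes are named where called, except a marker gene that is not reported here, and transcripts where they hold 10% or more of such a gene. Genes named otherwise are said to be chosen after their values were seen.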

Additional observations from a re-analysis of the deposited data

Results flagged for a closer look

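*Syt12*, which encodes a synaptotagmin, measured 56.0 CPM in vehicle replicate 3, apart from the other vehicle wells at 49.1 to 50.2 CPM. The gap to the nearest well over the range of the group was 0.837, above the 95% critical value of Dixon's test for 4 wells. It was the only one of 80 groups of wells (40 genes in each of both treatments) to pass this limit, where chance alone passes about 1 in 20.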

How the results depend on the processing

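The count of DE genes depended on the block and the tool. It was 35 without a block, 157 with DESeq2, 119 with DESeq2 and a length offset, 7 with edgeR and a length offset, 668 with the batch block, 596 with the replicate block and 403 with limma voom and the replicate block, and 28 with limma voom, 32 with DESeq2's size factors and 46 without the filter on low counts. For the release machinery genes the count was 0 without a block, 1 with DESeq2 and 1 with DESeq2 and a length offset (*Sv2b* in both), and 3 with the batch block, 3 with the replicate block and 3 with limma voom and the replicate block (*Syt4*, *Syt9* and *Sv2b*). Leaving out 1 well gave 4 to 29 DE genes and 0 release machinery genes without a block. With the batch block it gave 555, 370, 387 and 393 DE genes without MCH replicates 1 to 4 and 413, 273, 1046 and 315 without vehicle replicates 1 to 4, and of the release machinery 3, 1, 2 and 3 genes and 2, 1, 9 and 2 genes in the same order. Limma voom with the replicate block and the batch block without each well were added after seeing the data. No transcript of the list was called under any alternative, and the replicate block changed no call of a member other than those of *Sv2b*, *Syt9* and *Syt4*. The sides separated 23 members in TPM in place of 25 in CPM, and the median level was 162 CPM with or without TMM factors. No called value changed its direction. The cause of these differences was not tested.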

Other observations

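Among the cell type markers, called genes were seen with a block and not without one. With the replicate and the batch block, 2 and 1 of 8 excitatory neuron markers passed, all higher. Another of the 8 was lower in all MCH wells than in all vehicle wells and did not pass. Of 12 inhibitory neuron markers 2 and 3 passed, all lower, including a marker that is not reported here. Of 9 astrocyte markers 1 and 0 passed. Over all genes, 3.98% and 4.46% passed. The cortical and hippocampal transcription factor *Tbr1* was higher with MCH (30.1 ± 2.35 CPM with vehicle and 35.7 ± 0.865 CPM with MCH, edgeR adjusted *P* = 0.216 without a block, 0.00920 with the replicate block and 0.00748 with the batch block). *Neurod2*, a factor of excitatory neurons, was at 61.6 ± 3.79 and 73.4 ± 11.0 CPM and passed with the replicate block (0.0259) but not with the batch block (0.118). The interneuron genes *Gad1*, the enzyme that makes GABA (1148 ± 91.9 and 1073 ± 47.9 CPM, 0.0349 and 0.0267), and *Vip*, a neuropeptide (28.2 ± 1.35 and 24.1 ± 2.38 CPM, 0.0298 and 0.0225), were lower with MCH under both blocks. The astrocytic glutamate transporter *Slc1a2* (787 ± 110.0 and 873 ± 75.7 CPM) passed with the replicate block (0.0353) and not with the batch block (0.115).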
